A study of Mus musculus with 12 samples.

Results

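The 45 genes described here encode the proteins that copy DNA during the S phase of the cell cycle. They were taken by gene symbol from a count table of mouse liver cells, and the rule used no measured value. All 45 were among the 53599 genes of the table, and all 45 were among the 16210 genes that passed a filter on low counts and were tested. They fall into 9 roles: 10 genes of origin licensing, 6 of helicase activation, 6 encoding polymerase and primase subunits, 6 of the sliding clamp and its loader, 3 encoding replication protein A, 2 of flap removal and ligation, 5 of nucleotide supply, 3 of chromatin copying and 4 of S-phase entry. Orc1 had 4 to 14 counts in the 6 early and intermediate libraries and 34 to 71 in the other 6, and it alone of the 45 passed the filter only through the latter.

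The study followed hepatocytes that take on features of bile duct cells in injured adult liver. All mice were labelled WT and had received AAV8-TBG-Cre, a virus in which the hepatocyte promoter TBG drives Cre recombinase, so that hepatocytes and their descendants carry EGFP. The reporter allele and the age of the animals are not given in the labels. From 1 week after the virus, all mice ate 0.1% DDC, a compound that injures the biliary tree, for 8 weeks, and no uninjured group is part of the comparisons. Cells were then sorted into 4 groups of 3 libraries. The early group was EGFP+ Cd24- Epcam-, the intermediate group EGFP+ Cd24+ Epcam-, and the full group EGFP+ Cd24+ Epcam+. The BEC group, resident biliary cells, was EGFP- Epcam+, and any hepatocyte-derived cell that escaped Cre cannot be told apart from them. Nothing in the labels says that the 3 replicates came from separate animals, so p-values measure the spread between these libraries, which may be partly technical.

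Replication starts with licensing. In G1, the origin recognition complex, Cdc6 and Cdt1 load rings of Mcm2 to Mcm7 onto origins. In S phase, Mcm10, Cdc45 and the GINS complex turn each ring into an active helicase, the alpha polymerase with its primase lays down primers, and the delta and epsilon polymerases extend them while tethered to the Pcna clamp. Activating E2F transcription factors and cyclin E raise the transcription of much of this machinery before S phase. Adult hepatocytes rest outside the cell cycle in healthy liver and re-enter it after injury, and bile duct cells proliferate in the ductular reaction that DDC provokes.

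Because E2F factors bind a short GC-rich word, promoters of the genes on which the results turn are shown with that word marked. The sequences are from RefSeq on build GRCm38.p6. Each runs 5′ to 3′ on the strand of the gene, from 220 bases before the transcription start to 30 after it. Capitals mark any of the 4 words TTTCCCGC, TTTCGCGC, TTTGCCGC and TTTGGCGC, searched on both strands, with overlapping words counted separately. Uhrf1 has 2 RefSeq promoters, and the one printed was picked because it holds a word, which the other does not. The first 4 promoters belong to genes that rose between the intermediate and the full group and hold such words, while those of Mcm10 and Rrm2, both of which fell from early to intermediate, hold none of the 4 in this stretch. The 6 show the word and its absence and cannot be read as a contrast in response. Rrm2 rose more from intermediate to full than Mcm5 or Mcm6. Cdc45, Mcm2 and E2f1 rose without a word, and Gins3, Rfc3 and E2f2 hold a word and were not called at that step. The stretches are chr8:75109289-75109538 on the forward strand for Mcm5, chr1:128359676-128359925 on the reverse strand for Mcm6, chr11:98907931-98908180 on the forward strand for Cdc6, chr17:56304093-56304342 on the forward strand for Uhrf1, chr2:5012762-5013011 on the reverse strand for Mcm10 and chr12:24708034-24708283 on the forward strand for Rrm2.
Mcm5: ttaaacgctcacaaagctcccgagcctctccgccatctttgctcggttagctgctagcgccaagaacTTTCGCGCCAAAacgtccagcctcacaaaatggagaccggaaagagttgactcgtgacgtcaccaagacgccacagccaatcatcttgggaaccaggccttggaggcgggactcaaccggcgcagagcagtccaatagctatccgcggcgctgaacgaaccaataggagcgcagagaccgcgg
Mcm6: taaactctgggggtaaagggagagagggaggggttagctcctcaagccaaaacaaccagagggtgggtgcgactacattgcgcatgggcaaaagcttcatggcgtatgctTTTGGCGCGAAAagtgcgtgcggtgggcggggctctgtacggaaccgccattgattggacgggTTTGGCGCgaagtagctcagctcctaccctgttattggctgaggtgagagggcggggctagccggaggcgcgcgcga
Cdc6: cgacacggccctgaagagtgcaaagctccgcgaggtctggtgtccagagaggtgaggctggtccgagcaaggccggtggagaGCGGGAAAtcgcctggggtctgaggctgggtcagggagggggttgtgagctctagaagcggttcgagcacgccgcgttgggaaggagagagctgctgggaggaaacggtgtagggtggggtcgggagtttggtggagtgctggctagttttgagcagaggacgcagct
Uhrf1: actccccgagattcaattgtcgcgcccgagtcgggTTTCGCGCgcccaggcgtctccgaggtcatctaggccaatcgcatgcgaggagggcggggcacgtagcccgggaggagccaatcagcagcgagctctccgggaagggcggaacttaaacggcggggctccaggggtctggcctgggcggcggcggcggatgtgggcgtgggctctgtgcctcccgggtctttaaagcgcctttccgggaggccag
Mcm10: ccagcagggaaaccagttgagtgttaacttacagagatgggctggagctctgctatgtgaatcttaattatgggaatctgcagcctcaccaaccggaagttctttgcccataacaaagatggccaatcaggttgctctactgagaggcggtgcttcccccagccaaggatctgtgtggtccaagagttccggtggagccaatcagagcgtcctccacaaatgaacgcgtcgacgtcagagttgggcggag
Rrm2: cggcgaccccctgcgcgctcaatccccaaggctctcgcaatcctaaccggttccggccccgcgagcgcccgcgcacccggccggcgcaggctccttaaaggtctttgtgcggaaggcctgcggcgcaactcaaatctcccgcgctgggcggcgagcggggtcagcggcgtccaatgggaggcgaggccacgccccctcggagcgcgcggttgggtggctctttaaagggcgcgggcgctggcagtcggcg

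RefSeq promoter windows of 300 bases, from 250 before to 50 after the start, were found for 37 of the 45 genes. At least 1 of the 4 E2F words was present in 14 of these 37 (37.8%), against 512 of 11575 tested genes with a window (4.42%) and 704 of 27025 genes in all (2.6%). Where a gene had several windows, the one with the most words was counted. The 14 were Orc1, Cdc6, Cdt1, Mcm3, Mcm5, Mcm6, Mcm7, Gins3, Pola1, Pold1, Rfc3, Lig1, Uhrf1 and E2f2, so origin licensing supplied 7 of them. In Mcm5 and in Mcm6, a pair of words on opposite strands overlapped, as the longer runs of capitals above show. The words of Mcm5, Cdc6 and Uhrf1 lay more than 100 bases before the start, and 10 of the 14 genes had a word within 50 bases of it. The plot of word positions shows this spread. CCAAT, searched on both strands, was in 62.2% of the 37 promoters and in 42.5% of tested genes. A match is a description of these letters and was not tested as a binding site.

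**Figure D1:**
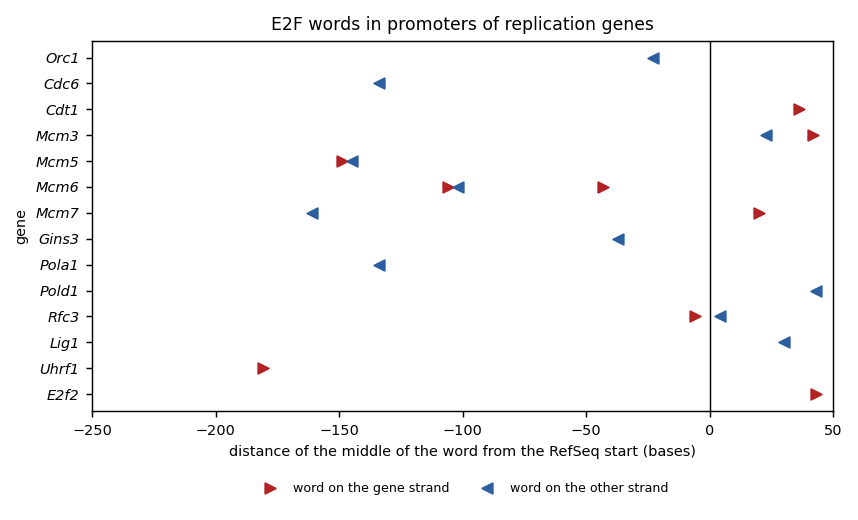
Position of each E2F word in the promoters of the 14 replication genes that hold one; the x axis is the distance in bases of the middle of the word from the RefSeq transcription start, and triangles point right for a word on the strand of the gene and left for one on the other strand. Words spread over the window, with overlapping pairs on opposite strands in Mcm5 and Mcm6.

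Libraries held between 15112893 and 19731887 counts. Values below are CPM, counts relative to library size, scaled by TMM factors, which correct for differences in composition and were 0.65 to 0.67 in the early libraries and 1.03 to 1.22 in the others. The marker lists matched the sort labels at the 2 ends: the summed level of 8 hepatocyte markers was 96739 to 101069 CPM in early and 2016 to 2672 CPM in BEC. In between, it was 14593 to 19088 CPM in intermediate and 3199 to 4199 CPM in full. The sum of 8 biliary markers was 951 to 1912 CPM in early and 13825 to 17219 CPM in BEC. It was 9184 to 12107 CPM in intermediate and 11500 to 14778 CPM in full, ranges that overlap. Ptprc, the pan-leukocyte marker, was between 0 and 1.19 CPM in every library, and the summed neutrophil, B cell, and T and NK cell markers were each under 1 CPM in all. Stellate and fibroblast markers summed to 94.0 to 266 CPM in early and to 43.7 to 158.8 in the other groups, and endothelial markers to 13.4 to 19.9 in early and 1.16 to 13.5 in the others. Macrophage and Kupffer cell markers summed to 23.0 to 24.2 CPM in early, 29.5 to 35.9 in intermediate, 65.0 to 87.6 in full and 132 to 147 in BEC. Csf1r made up most of that sum outside early, with group means of 3.94, 24.6, 67.8 and 127 CPM in that order, whereas Cd68 was at 13.96, 2.74, 1.62 and 3.46 CPM. Erythroid markers, of which Alas2 made up nearly all, summed to 18.7, 21.5 and 33.3 CPM in early replicates 1 to 3, to 2.33 to 3.17 CPM in intermediate and to 0.213 to 1.23 CPM in full and BEC. Mitochondrial genes took 7.63% ± 3.31 of counts in early and 2.33% ± 0.14 in full (SD, n = 3). The part of these differences in the results below was not tested. In bulk libraries, a larger share of cells in S phase and more replication mRNA per cell cannot be told apart.

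Replication transcripts were low in the early and intermediate groups and high in the full and BEC groups. The 45 genes together came to 567, 585 and 981 CPM in early replicates 1 to 3, to 657, 654 and 667 CPM in intermediate, to 1327, 1235 and 1244 CPM in full, and to 1134, 1135 and 1299 CPM in BEC. The 6 full and BEC libraries all lay above the 6 others, and 1 early library, replicate 3, stood between the sets. Of the 45 genes, 25 had their highest group mean in full, 12 in BEC, 8 in early and 0 in intermediate. The heat map of the 45 genes shows the break between intermediate and full in most rows, and a set of rows that were also high in early.

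**Figure D2:**
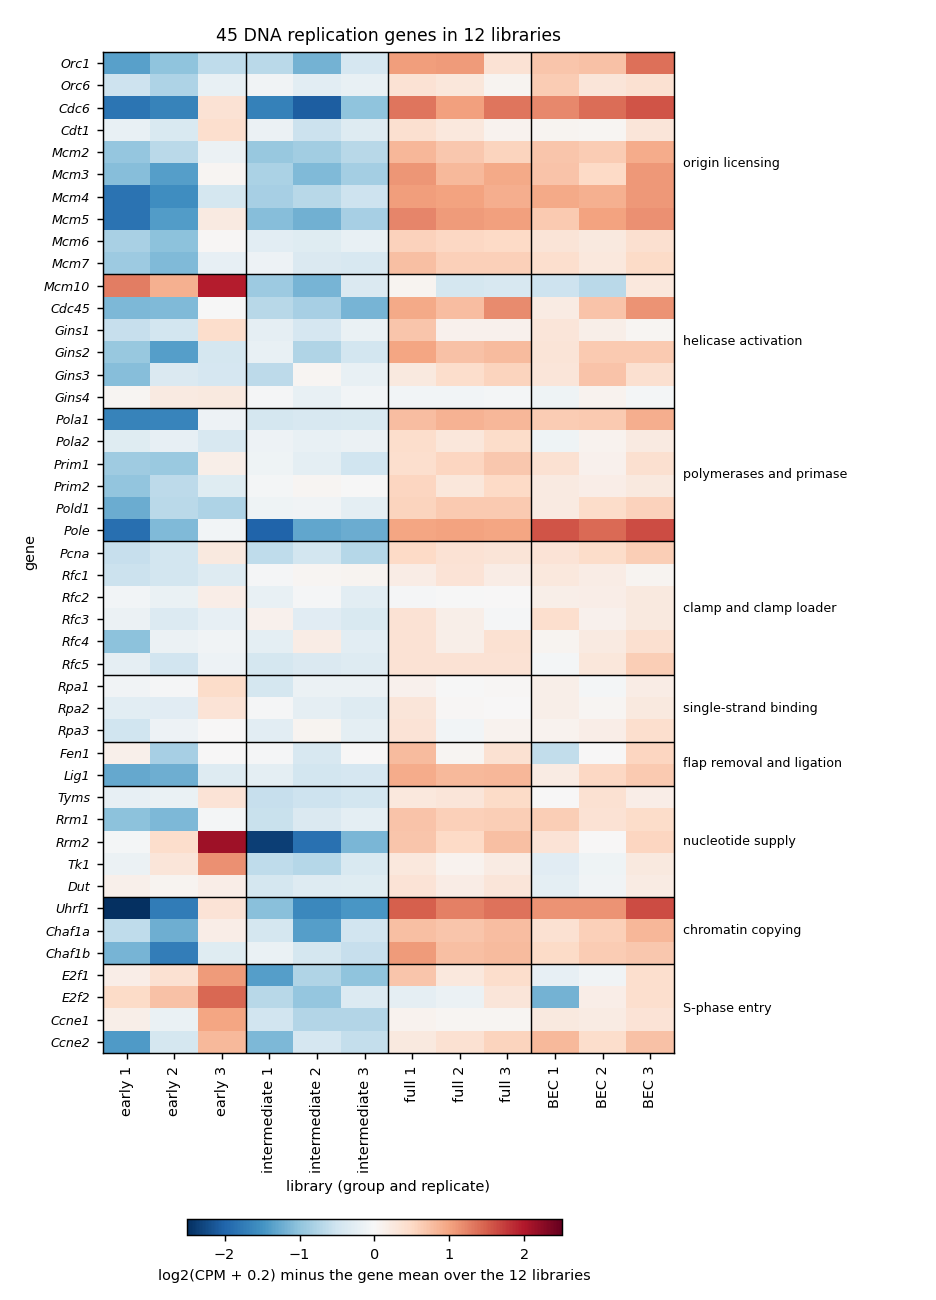
Heat map of the 45 replication genes (rows, by role) in the 12 libraries (columns, by group and replicate); colour is log2(CPM + 0.2) minus the mean of the gene over the 12 libraries. Most rows turn from blue to red between intermediate and full, early 3 is redder than early 1 and 2, Mcm10, E2f1 and E2f2 are red in early, and Rrm2 is reddest in early 3 and bluest in intermediate 1.

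At the step from intermediate to full, 31 of the 45 genes rose and 0 fell, where 20.8% of all genes rose and 19.8% fell. Without Orc1 and the other genes that passed the filter only through full and BEC, 30 of 44 rose, where 17.7% of 14061 genes rose. A gene is said to rise or fall where edgeR's quasi-likelihood test gave a p under 0.05 after Benjamini-Hochberg adjustment over the 16210 genes. All 45 estimates were above 0, with a median log2 fold change of 0.79 against 0.01 over all genes. At an unadjusted p under 0.05, 36 rose and 0 fell, a threshold at which the share of all genes was not counted. With DESeq2, 0 fell, where 18.9% of all genes fell. In 40 of the 45 genes, every full library was above every intermediate library, which held for 28% of all genes. With libraries scaled by their totals alone, 39 rose and 0 fell, while 32.3% of all genes rose and 12.2% fell. With the replicate number as a block, 35 rose, where 22.9% of all genes rose, the additions being Orc6, Mcm10, Gins3 and Rfc3.

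From early to intermediate, 3 genes rose and 9 fell, where 28.7% of all genes rose and 25.7% fell, and the median log2 fold change was -0.15 against 0.06 over all genes. From full to BEC, 0 rose and 1 fell, where 10.7% of all genes rose and 10.6% fell, with a median of -0.08 against 0.00. At an unadjusted p under 0.05, 0 rose and 2 fell at that last step, with no share of all genes counted. With DESeq2, 0 rose and 1 fell, where 12.1% of all genes rose and 11.5% fell. Read across the 3 steps, 22 genes were called at the step to full alone, 6 fell and then rose, 3 fell at the first step alone, 2 rose at both steps, 1 rose at the first step alone, 1 rose to full and then fell to BEC, and 10 were called at none. A call at one step and none at another does not show that the steps differ, and that difference was not tested. The plot of fold changes by step gives the estimates of all 45 genes.

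**Figure D3:**
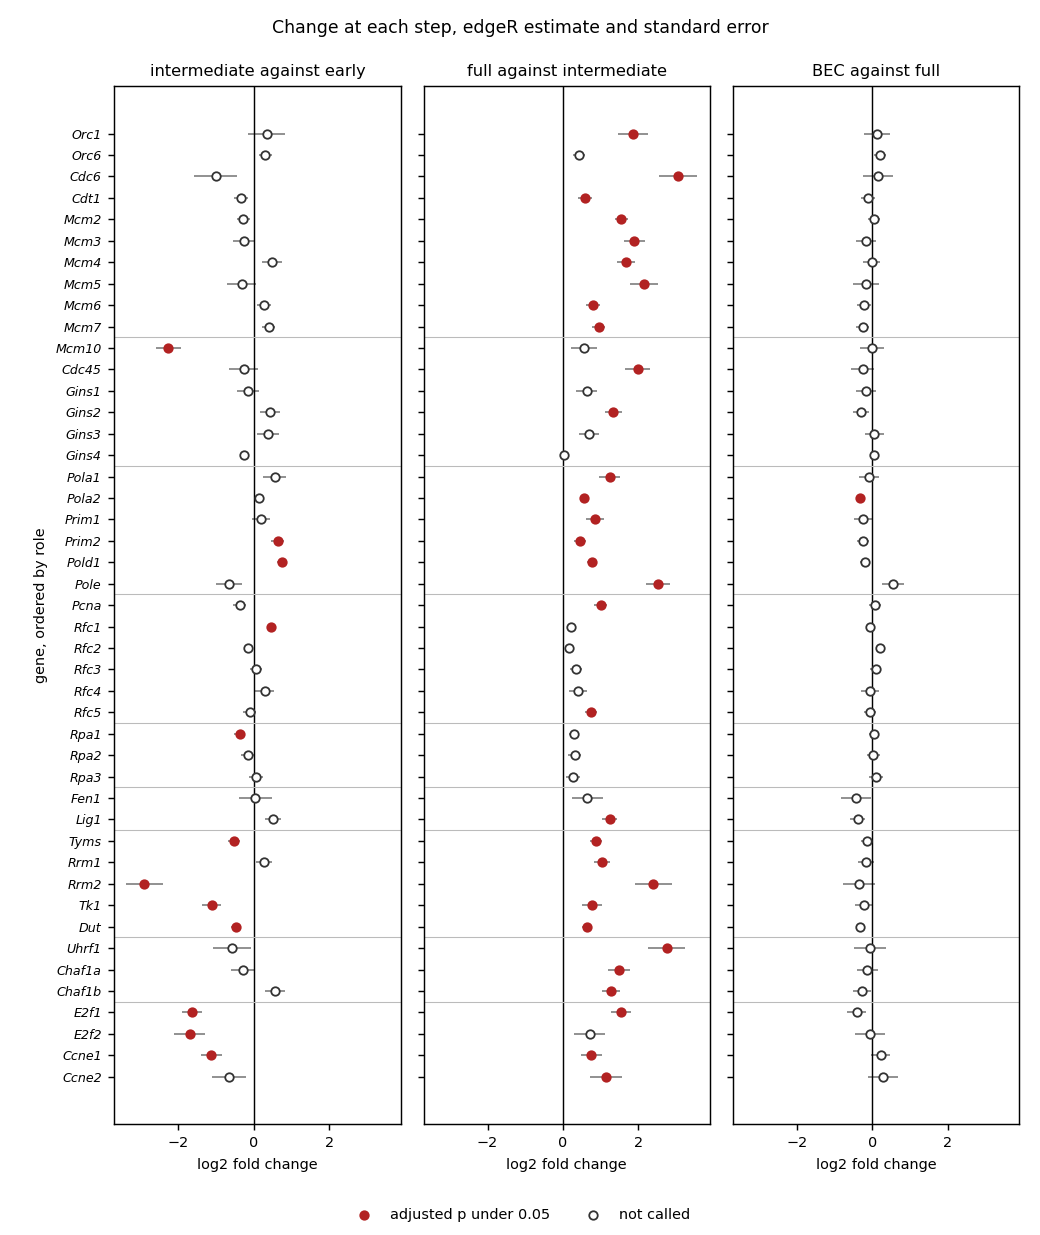
Log2 fold change of each replication gene (y axis, by role) at the 3 steps, with bars for the standard error of edgeR's estimate; filled points had an adjusted p under 0.05. The points of the middle panel all lie right of 0, those of the right panel cluster around 0, and those of the left panel lie on both sides.

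In origin licensing, 9 of the 10 genes were higher in full than in intermediate, Orc1 among them. Cdc6, the loader that recruits the Mcm ring, was at 0.629, 0.438 and 1.13 CPM in intermediate and at 6.55, 5.22 and 6.56 CPM in full. Its increase was 8.27-fold, a log2 fold change of 3.05 ± 0.50 (SE, adjusted p = 0.000289, edgeR), the largest among the 45. The groups did not overlap, although the intermediate libraries rest on 8 to 20 counts of Cdc6 each. Orc1, the largest subunit of the origin recognition complex, went from 0.60 ± 0.21 to 2.18 ± 0.60 CPM (SD, n = 3), a log2 fold change of 1.85 ± 0.40 (SE). It entered the test through the groups in which it is high, so this value is given as a description. Orc6, the smallest subunit of that complex, had the smallest estimate of the role. It was at 8.74, 7.73 and 8.09 CPM in intermediate and at 11.9, 11.4 and 9.71 CPM in full, with no overlap. Its log2 fold change of 0.43 missed the threshold (adjusted p = 0.056) and passed it with the replicate block (0.0439), DESeq2 (0.0213), median-of-ratios factors (0.0396), totals alone (0.00843), a mean of at least 50 counts (0.039) and the 6 libraries compared (0.0346), and also without early replicate 2 (0.0432) or early replicate 3 (0.0375). Cdt1, the partner of Cdc6 in loading, rose 1.51-fold (adjusted p = 0.0202). That call was lost on leaving out intermediate replicate 2 (adjusted p = 0.0925), intermediate replicate 3 (0.0551), full replicate 1 (0.0734) or full replicate 2 (0.0522).

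The 6 Mcm genes encode the ring of the replicative helicase and all rose from intermediate to full, by unequal amounts. Mcm5 was at 9.49, 8.66 and 11.3 CPM in intermediate and at 47.5, 42.5 and 41.0 CPM in full, a 4.44-fold increase (log2 2.15 ± 0.37 SE, adjusted p = 0.000372, edgeR). The lowest full library had more than 3 times the level of the highest intermediate one. Mcm3 rose 3.70-fold, Mcm4 3.19-fold and Mcm2 2.91-fold. Mcm7 rose 1.92-fold and Mcm6 1.73-fold, from intermediate levels of 42.1 ± 4.64 and 61.7 ± 2.65 CPM (SD, n = 3), the highest of the 6. These 6 calls held on leaving out any 1 of the 12 libraries.

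Because the ring holds the 6 proteins in equal numbers, their mRNA levels were also set side by side per kilobase of the longest coding transcript in GENCODE M21. In intermediate replicate 1, Mcm7 was at 16 and Mcm5 at 2.81 CPM per kilobase, and in full replicate 1 they were at 29.2 and 14.1. The ratio of the highest to the lowest of the 6 levels was 5.15 ± 0.65 in intermediate and 2.12 ± 0.05 in full (SD, n = 3). The same ratio came to 4.38 ± 1.38 in early and 2.09 ± 0.36 in BEC. The full and BEC ratios, from 1.84 to 2.5, all lay below the early and intermediate ones, from 3.48 to 5.97. In all 12 libraries, Mcm6 or Mcm7 was the highest, and the lowest was Mcm5 in 9 of them. Mcm7 overlaps Ap4m1 on the other strand over 7.25% of its exonic bases.

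**Figure D4:**
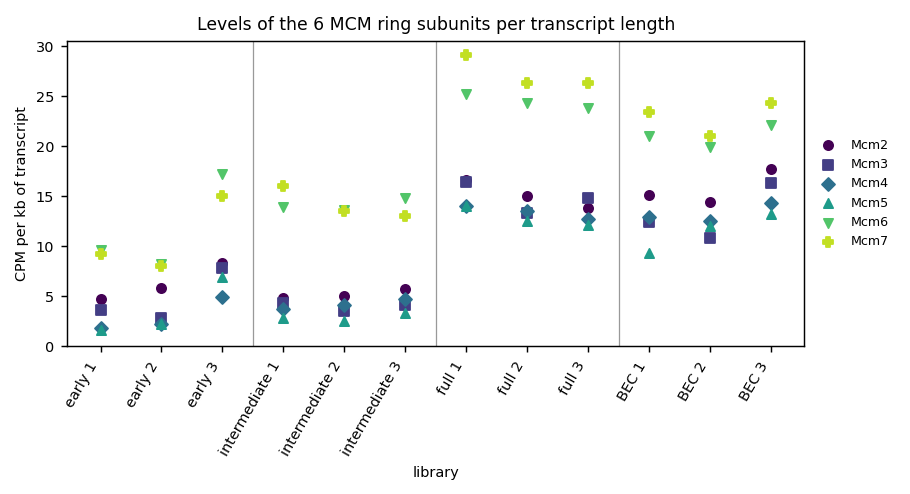
Level of the 6 ring subunits in each library, in CPM per kilobase of the longest coding transcript (y axis), by library (x axis); each marker is 1 gene. Mcm6 and Mcm7 stand above the other 4 everywhere, and the gap relative to the lowest narrows from a mean ratio of 5.15 in intermediate to 2.12 in full.

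Among the 6 genes of helicase activation, 2 rose from intermediate to full. Cdc45, which joins the ring to form the active helicase, went from 1.89, 1.70 and 1.30 CPM to 6.25, 5.53 and 7.48 CPM, with no overlap, a 3.94-fold increase (adjusted p = 0.000379, edgeR). Gins2 rose 2.53-fold (adjusted p = 0.00039), but 67.3% of its exonic bases overlap Gse1 on the other strand, and without a stated strand setting their reads cannot be told apart. Gins3, another GINS subunit, had a log2 fold change of 0.70 (adjusted p = 0.0505). It passed with the replicate block (0.0189), DESeq2 (0.0193), median-of-ratios factors (0.0395), totals alone (0.0148) and a mean of at least 50 counts (0.0346), and without early replicate 1 (0.0331) or intermediate replicate 2 (0.0444). Gins4 stood at 16.5, 14.96 and 16.2 CPM in intermediate and at 16.1, 16.1 and 16.4 CPM in full. Its log2 fold change of 0.03, with a 95% interval from -0.20 to 0.26, was the smallest of the 45, although the 4 GINS proteins form 1 complex.

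Mcm10, which helps to activate the loaded ring, was highest in early. It was at 18.98, 14.3 and 30.4 CPM in early and at 3.96, 3.29 and 5.94 CPM in intermediate, with no overlap. It fell 4.82-fold at this step (log2 -2.27 ± 0.33 SE, adjusted p = 5.90e-05, edgeR). In full it was at 8.04, 5.62 and 5.73 CPM, and the log2 fold change of 0.56 from intermediate was not called (adjusted p = 0.206), except with the replicate block (0.0487). Its level in full remained 3.28-fold below early (adjusted p = 0.000262), whereas Cdc45 was 3.26-fold above early.

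All 6 polymerase and primase genes rose from intermediate to full. Pole, the catalytic subunit of the leading-strand epsilon polymerase, was at 3.33, 5.59 and 5.77 CPM in intermediate and at 28.0, 28.2 and 27.9 CPM in full. The groups were far apart, with a 5.69-fold increase (log2 2.51 ± 0.32 SE, adjusted p = 3.12e-05, edgeR). Pola1, the catalytic subunit of the primer-making alpha polymerase, rose 2.35-fold and its partner Pola2 1.47-fold. Pold1, the catalytic subunit of the lagging-strand delta polymerase, rose at both steps: it was at 16.3 ± 3.29 CPM in early, 27.3 ± 1.54 in intermediate and 46.3 ± 1.97 in full (SD, n = 3). Its adjusted p was 0.00048 at the first step and 0.00042 at the second. Prim2, the large primase subunit, was at 4.82, 6.18 and 7.85 CPM in early, 9.49, 10.1 and 9.74 CPM in intermediate, and 14.2, 11.996 and 14.0 CPM in full. The 3 groups did not overlap, and Prim2 rose at both steps, 1.56-fold (adjusted p = 0.00571) and then 1.37-fold (adjusted p = 0.0345). The second of these calls was lost in 6 of the 12 fits that leave out 1 library, those without an intermediate replicate, full replicate 1 or 3, or BEC replicate 2, with adjusted p up to 0.102, and with no filter beyond 1 count (0.0641). Prim1, the catalytic primase subunit, rose 1.79-fold (adjusted p = 0.0109, and 0.0507 without intermediate replicate 3).

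Of the 6 genes of the clamp and its loader, 2 were called from intermediate to full. Pcna, the sliding clamp, went from 39.8, 44.7 and 37.4 CPM in intermediate to 87.1, 79.1 and 77.1 CPM in full, a 1.996-fold increase (log2 0.997 ± 0.17 SE, adjusted p = 0.000377, edgeR). Of the 5 subunits of the loader, replication factor C, Rfc5 rose 1.68-fold (adjusted p = 0.00204), and the other 4 were not called. Rfc2 had the smallest estimate, at 33.9, 37.4 and 32.0 CPM in intermediate and at 37.6, 38.3 and 38.6 CPM in full (adjusted p = 0.262, and 0.016 with totals alone). Rfc3 passed with the replicate block (adjusted p = 0.0278), with totals alone (0.011) or without intermediate replicate 1 (0.0212). Rfc1, the largest subunit, had risen at the earlier step, from 43.8 ± 3.47 CPM in early to 60.5 ± 2.24 in intermediate (adjusted p = 0.000626). It was at 69.9 ± 4.65 CPM in full (adjusted p = 0.0773), a difference called with DESeq2 (0.0294), median-of-ratios factors (0.0394), totals alone (0.00287) and a mean of at least 50 counts (0.0399).

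Replication protein A coats exposed single strands in replication and in repair. None of its 3 subunit genes was called between intermediate and full, with log2 fold changes of 0.28, 0.31 and 0.27 for Rpa1, Rpa2 and Rpa3. Their 95% intervals reached no higher than 0.69, so a change of 2-fold or more was outside all 3. Rpa2 was at 11.9, 10.4 and 9.68 CPM in intermediate and at 15.1, 12.4 and 12.2 CPM in full. Rpa3 was at 6.92, 8.77 and 6.96 CPM and at 10.6, 7.94 and 8.88 CPM, and the groups of Rpa3 overlapped. Rpa1 was called without early replicate 3 (adjusted p = 0.0416), with the 6 libraries compared (0.0408) and with totals alone (0.0124), and Rpa2 with totals alone (0.0319). The levels of Rpa1 were 40.9, 50.2 and 50.4 CPM in intermediate and 59.8, 55.3 and 57.1 CPM in full, the highest of the 3 genes in CPM, which does not account for length. Of the pair that finishes the lagging strand, Lig1, the ligase that seals the fragments, went from 35.1, 30.4 and 31.1 CPM to 79.7, 73.8 and 74.9 CPM, a 2.37-fold increase (adjusted p = 0.000225). Fen1, the nuclease that trims flaps, was at 1.26, 0.931 and 1.30 CPM in intermediate and at 2.38, 1.34 and 1.75 CPM in full, and it was not called (adjusted p = 0.221). Antisense Gm10143 overlaps 78.8% of the exonic bases of Fen1, so its counts are uncertain.

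In nucleotide supply the 2 steps ran in opposite directions, as they did for E2f1 and Ccne1 among the genes of S-phase entry. All 5 genes of nucleotide supply rose from intermediate to full, and 4 of them had fallen from early to intermediate, of which Rrm2 alone was still called when libraries were scaled by totals. Rrm2, the cell-cycle-limited subunit of ribonucleotide reductase, was at 12.2, 17.4 and 56.0 CPM in early, at 2.33, 3.34 and 5.66 CPM in intermediate, and at 20.5, 18.02 and 21.6 CPM in full. It fell 7.51-fold (log2 -2.91 ± 0.49 SE, adjusted p = 0.000188, edgeR) and then rose 5.27-fold (log2 2.40 ± 0.48 SE, adjusted p = 0.00127). Without early replicate 3, the fall was -1.95 on the log2 scale and still called. Rrm1, its partner subunit, did not share the fall: it was at 23.2 ± 10.3, 27.9 ± 3.06 and 57.0 ± 2.56 CPM in the 3 groups (SD, n = 3). Tk1, the thymidine kinase of the salvage route, fell 2.17-fold (adjusted p = 0.00234, and 0.134 with scaling by totals alone) and rose 1.71-fold (adjusted p = 0.0272). The rise of Tk1 was lost without intermediate replicate 1 (adjusted p = 0.0667), intermediate replicate 2 (0.0965), full replicate 1 (0.069) or full replicate 3 (0.0615). Dut, which removes dUTP, and Tyms, which makes thymidylate, fell by less, 1.40-fold and 1.45-fold. Dut was at 15.6, 14.9 and 15.9 CPM in early, 10.4, 11.3 and 11.4 CPM in intermediate, and 18.04, 16.1 and 17.6 CPM in full, with intermediate below both. The fall of Tyms was not called without early replicate 3 (adjusted p = 0.0935). With scaling by totals alone, Tyms and Dut had log2 fold changes of 0.13 and 0.18 at this step.

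The 3 genes of chromatin copying all rose from intermediate to full. Uhrf1, which brings the maintenance methyltransferase to newly copied DNA, was at 9.81, 6.58 and 7.36 CPM in intermediate and at 58.2, 49.1 and 52.4 CPM in full, a 6.74-fold increase (log2 2.75 ± 0.49 SE, adjusted p = 0.000473, edgeR). Chaf1a and Chaf1b encode subunits of CAF-1, which deposits histones behind the fork. They rose 2.80-fold and 2.43-fold. Chaf1b went from 10.6, 8.71 and 7.87 CPM to 25.2, 20.1 and 20.6 CPM, with no overlap, and 52.5% of the exonic bases of Chaf1a overlap Ubxn6 on the other strand. Among the genes of S-phase entry, E2f1, an activating E2F factor, was at 10.9, 12.6 and 20.4 CPM in early, 3.58, 5.70 and 4.76 CPM in intermediate, and 15.9, 11.6 and 13.2 CPM in full. It fell 3.12-fold and rose 2.89-fold (adjusted p = 0.000137 and 0.000358). Early and full overlapped for E2f1, and both lay above intermediate. E2f2, another activating factor, was at 3.797, 4.55 and 7.53 CPM in early, 1.57, 1.26 and 2.04 CPM in intermediate, and 2.25, 2.36 and 3.32 CPM in full. It fell 3.25-fold (adjusted p = 0.00357), and its log2 fold change of 0.70 to full was not called. Ccne1, encoding a cyclin E, fell 2.18-fold (adjusted p = 0.004, and 0.165 with scaling by totals alone) and rose 1.68-fold (adjusted p = 0.0434). Ccne2, encoding the other cyclin E, rose 2.22-fold (adjusted p = 0.044). The rises of the cyclins were fragile: of the 12 fits that leave out 1 library, 9 lost the call of Ccne1, all but those without an early replicate, and 10 lost that of Ccne2, all but those without early replicate 1 or 3, with adjusted p up to 0.124 and 0.129.

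**Figure D5:**
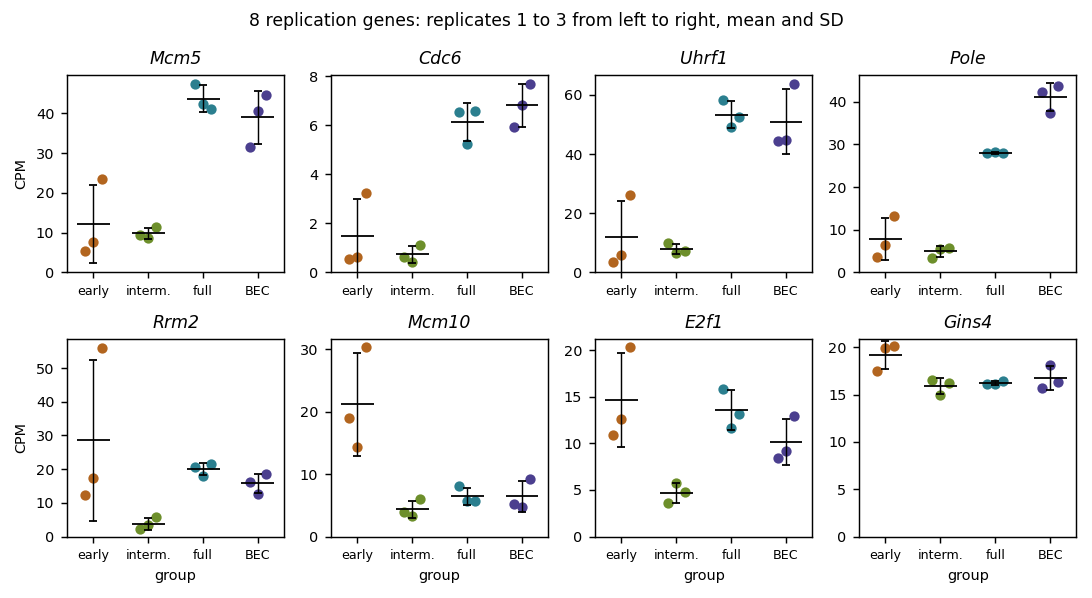
CPM of 8 replication genes (y axes, from 0) in each library, by group (x axis), with replicates 1 to 3 from left to right and bars for the mean and SD. Mcm5, Cdc6, Uhrf1 and Pole step up at full, Rrm2 and E2f1 dip in intermediate, Mcm10 is high in early alone, and Gins4 is level from intermediate to BEC.

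The comparison of intermediate with early rests heavily on 1 library. Early replicate 3 was the highest early library for 40 of the 45 genes (88.9%), against 32.7% of all genes. Its level divided by the mean of early replicates 1 and 2 had a median of 1.73 over the 45 genes and of 1.001 over all genes, and 17 of the 45 exceeded 2. Uhrf1 was at 3.48, 5.91 and 26.1 CPM in the early replicates, Cdc6 at 0.554, 0.637 and 3.24 CPM, and Mcm5 at 5.46, 7.55 and 23.6 CPM. Replicate 3 had more than 3 times the level of either other early library, and it exceeded the intermediate libraries, in all 3 genes. The 18 mitosis genes described below summed to 88.0, 50.5 and 164 CPM in the same 3 libraries. Over early replicates 1 to 3, hepatocyte markers summed to 96739, 100603 and 101069 CPM, biliary markers to 951, 1145 and 1912 CPM, stellate and fibroblast markers to 94.0, 231 and 266 CPM, and endothelial markers to 13.4, 19.9 and 18.2 CPM. Their part in the result was not tested.

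With early replicate 3 left out, 15 genes rose from early to intermediate and 7 fell, in place of 3 and 9, where 26.2% of all genes rose and 22.9% fell in that fit. The 15 were Orc6, Mcm4, Mcm5, Mcm6, Mcm7, Gins2, Pola1, Prim1, Prim2, Pold1, Rfc1, Lig1, Rrm1, Uhrf1 and Chaf1b. Mcm5 then had a log2 fold change of 0.61 (adjusted p = 0.0246) in place of -0.32, Uhrf1 0.77 (0.0298) in place of -0.59, and Mcm4 1.05 (5.66e-05) in place of 0.48. Cdc6 turned from -1.02 to 0.31 without being called in either fit. With early replicate 1 left out instead, 15 genes fell and 3 rose, where 23.8% of all genes fell and 26.8% rose. Rpa1, called at -0.38 (adjusted p = 0.0312), lost its call without early replicate 3 (0.214) or intermediate replicate 1 (0.133), and with the 6 libraries compared (0.0611). The calls that held in each of the 12 such fits were the falls of Mcm10, Rrm2, Tk1, Dut, E2f1, E2f2 and Ccne1 and the rises of Prim2, Pold1 and Rfc1. With the replicate number as a block, 5 genes rose, where 30.1% of all genes rose, the 2 additions being Mcm7 (adjusted p = 0.0409) and Lig1 (0.0239).

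Scaling also matters at this step. By library totals alone, the median of all genes moved from 0.06 to 0.72, and 22 of the 45 genes rose and 4 fell, where 59.4% of all genes rose and 10% fell. The 4 were Mcm10, Rrm2, E2f1 and E2f2. Their falls from early to intermediate were thus called under TMM factors, under median-of-ratios factors, under DESeq2 and under totals alone. Relative to the shifted median, the median of the 45 under totals alone, 0.51, still lay below that of all genes, whereas with TMM factors and without early replicate 3 it lay above, at 0.21 against 0.07.

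Between full and BEC, few differences were measurable. Pola2, the second subunit of the alpha polymerase, was at 27.4, 24.8 and 27.7 CPM in full and at 18.8, 21.4 and 23.6 CPM in BEC. It fell 1.25-fold (log2 -0.32 ± 0.11 SE, adjusted p = 0.047, edgeR), the single call among the 45. That call was lost in 9 of the 12 fits that leave out 1 library, all but those without early replicate 1, early replicate 3 or BEC replicate 3, with adjusted p up to 0.16, and it was also lost with median-of-ratios factors in edgeR (0.0552) and with no filter beyond 1 count (0.119). Pole was at 42.2, 37.4 and 43.6 CPM in BEC, above all 3 full libraries, with a log2 fold change of 0.55 and a 95% interval from -0.05 to 1.15 (adjusted p = 0.207). It was called with the 6 compared libraries alone (0.0013), with no filter beyond 1 count (0.0342) and without early replicate 3 (0.039). Lig1 was at 48.3, 60.1 and 65.9 CPM in BEC, below all 3 full libraries (log2 -0.39, adjusted p = 0.196), and was called with the 6 compared libraries alone (0.021), with no filter beyond 1 count (0.0318) and without early replicate 3 (0.0223). Dut, not called at first (adjusted p = 0.103), fell without BEC replicate 3 (0.0315). In 3 of the 45 genes, every BEC library was above every full library, against 20.6% of all genes, and in 8 every one was below, against 19%.

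For 40 of the 45 genes, the 95% interval of the BEC to full difference lay within 2-fold in either direction. The other 5 were Cdc6, Pole, Fen1, Rrm2 and Ccne2. Mcm5, for example, had a log2 difference of -0.16 with an interval from -0.89 to 0.57, and Mcm7 one of -0.25 from -0.62 to 0.12. E2f1 had a log2 difference of -0.42 with an interval from -0.94 to 0.11. These intervals bound the differences and do not show that the groups are alike. BEC replicate 3 was the highest BEC library for 36 of the 45 genes (80%, against 36.3% of all genes), with 63.7 CPM of Uhrf1 against 44.5 and 44.8.

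Across both steps, from early to full, 28 of the 45 genes rose and 2 fell, where 39.1% of all genes rose and 32.1% fell. The median log2 fold change was 0.70 against 0.14 over all genes. Uhrf1 rose 4.48-fold and Mcm4 4.46-fold. The fold of Orc1, 4.56, rests on 4 to 8 counts in the early libraries, and Orc1 passed the filter through the groups where it is high. Among the roles, all 6 polymerase and primase genes, all 3 of chromatin copying and 9 of the 10 licensing genes were called. Orc1 is counted in the 9 and in the 28, and no count without genes that passed the filter in this way was made for this comparison. Mcm10 and E2f2 fell, the latter 1.997-fold (adjusted p = 0.0365). The call of E2f2 was lost without early replicate 3 (adjusted p = 0.193), full replicate 1 (0.104) or full replicate 2 (0.101), and with totals alone the log2 fold change was -0.14 (0.756). Rrm2, E2f1 and Tk1 were not called between these groups, with log2 fold changes of -0.51, -0.11 and -0.35. These all turned above 0 without early replicate 3 and with scaling by totals alone. Without early replicate 1, Tk1 was called lower in full than in early (log2 -0.60, adjusted p = 0.0244, edgeR). The fold of Uhrf1 and of Cdc6 grew to a log2 of 3.52 and 3.35 without early replicate 3, from 2.16 and 2.03.

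BEC compared with the 2 less converted groups in a like manner, using the same early and intermediate libraries. Against early, 28 of the 45 genes were higher and 2, Mcm10 and E2f2, lower, where 40% of all genes were higher and 33% lower. Against intermediate, 32 were higher and 0 lower, where 26.3% of all genes were higher and 26.2% lower. The 28 and the 32 include Orc1, which passed the filter only through full and BEC. No count without such genes was made for these 2 comparisons. At an unadjusted p under 0.05, 33 were higher and 0 lower than in intermediate, with no share of all genes counted. With DESeq2, 0 were lower, where 24.5% of all genes were lower. Without early replicate 3, the counts against early were 35 and 1, where 38% of all genes were higher and 31.1% lower. The call of E2f2 was lost in that fit (adjusted p = 0.158), as it was without BEC replicate 1 (0.0892), with the 6 libraries compared (0.0504) and with totals alone (log2 -0.19, adjusted p = 0.676). Rrm2, Tk1 and E2f1 were not called between BEC and early (adjusted p = 0.0881, 0.0564 and 0.0713, edgeR). Without early replicate 1, each was called lower, at log2 -1.23, -0.82 and -0.70 (adjusted p = 0.0101, 0.00398 and 0.0243). None of these genes was called without early replicate 3 or with totals alone. Pole was 8.33-fold higher in BEC than in intermediate, a log2 fold change of 3.06, and Rrm2 4.15-fold higher, a log2 fold change of 2.05.

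A wider list of 54 genes of replication and its control, 53 of them tested, was set beside the 45. From intermediate to full, 24 of the 53 rose and 3 fell, where 20.8% of all genes rose and 19.8% fell. Of these, Ticrr, Clspn and E2f7 passed the filter only through the full and BEC libraries, where they are high. Without such genes, 21 of 50 rose, where 17.7% of 14061 genes rose. Clspn, which links stalled forks to the checkpoint kinase, went from 0.60 ± 0.38 to 9.70 ± 0.89 CPM (SD, n = 3), and Top2a, the topoisomerase that untangles copied DNA, from 4.86 ± 1.52 to 65.6 ± 10.2 CPM. The log2 fold change of Top2a was 3.75. E2f7, a repressive E2F factor, was at 0.126, 0.219 and 0.170 CPM in intermediate, near or under the level of 3 counts, and at 3.45, 4.06 and 5.03 CPM in full. The levels of Clspn and E2f7 are given as a description. Dna2, a nuclease of flap processing and repair, fell to full (log2 -0.69, adjusted p = 0.00665). Rnaseh2c, a subunit of the nuclease that removes RNA from RNA-DNA hybrids, was at 31.4 ± 0.93 CPM in intermediate and 21.8 ± 2.93 in full (SD, n = 3), which missed the threshold (log2 -0.53, adjusted p = 0.0568). From early to intermediate, 11 of the 53 rose and 13 fell, where 28.7% of all genes rose and 25.7% fell, and the share that fell was near that of all genes. From full to BEC, 1 rose and 3 fell, where 10.7% of all genes rose and 10.6% fell.

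Mitosis genes were set beside the replication genes as a list, and the difference between the lists was not tested. Of 18 on the list, all 18 rose from intermediate to full with a median log2 fold change of 3.13, where 20.8% of all genes rose. From early to intermediate, 13 fell with a median of -1.51 over the 18, where 25.7% of all genes fell. With scaling by totals alone, 5 fell, where 10% of all genes fell. Between full and BEC, edgeR and DESeq2 each called 0 of the 18, and 0 had an unadjusted p under 0.05. At that step, edgeR called 10.7% of all genes higher and 10.6% lower, and DESeq2 12.1% and 11.5%. Cdkn1a, an inhibitor of cyclin-dependent kinases, rose from 40.6 ± 21.4 to 89.3 ± 17.6 CPM between early and intermediate (adjusted p = 0.0044), and it was lower in BEC, at 35.2 ± 5.41 CPM, than in full, at 63.8 ± 7.06 CPM (adjusted p = 0.0482). It was singled out after its values were seen, from a list of 8 genes of CDK inhibitors and p53 targets. Of the 8, 5 rose and 0 fell from early to intermediate, where 28.7% of all genes rose and 25.7% fell. Between intermediate and full, 3 rose and 0 fell (20.8% and 19.8% of all genes), and Cdkn1a was not called (log2 -0.48). In BEC, 2 were higher and 3 lower than in full (10.7% and 10.6% of all genes). Cdkn2a, another CDK inhibitor, had 0 counts in early and intermediate. Its log2 difference between BEC and full was 2.83, given as a description. In early, Cdkn1a was lowest in replicate 3, at 19.7 CPM, the library with the most replication transcripts of that group.

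The E2F words were set against the values. At the step to full, 11 of the 14 genes with a word rose, with a median log2 fold change of 1.09, and 15 of the 23 without one rose, with a median of 0.75. The 11 and their median include Orc1, which passed the filter only through the full and BEC libraries, where it is high. From early to intermediate, the medians were 0.16 with a word and -0.27 without, and 8 of the 9 genes that fell had none of the 4 words. That was 8 of the 23 genes without a word and 1 of the 14 with one, and 4.42% of tested genes with a window held a word. The set that fell depends on the fit: it was Mcm10, Rrm2, E2f1 and E2f2 under totals alone, and 15 genes without early replicate 1. Among the 9, E2f2 was the exception, and Mcm10 and Rrm2, printed above, were among the 8. Of the 15 mitosis genes with a window, 1 held an E2F word. These groups were formed by sequence and described after the values were known, and the difference between them was not tested.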

How the data were processed

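RNA from 12 libraries of sorted liver cells was sequenced, 3 per group, and groups follow the sample titles. The authors deposited raw counts per gene symbol. The submitters' processing notes list STAR 2.7.10b, featureCounts 2.0.1, DESeq2 and GRCm39, without roles. Annotation, strand setting and multi-mapping are not given in the sources used here, so overlapping genes (checked in GENCODE M21) are uncertain, and so are Pcna and Tyms, which have pseudogene copies. A second deposited table, of normalised values, was not used.

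The 45 genes and the gene lists were chosen with earlier results of these data known. Genes whose fold changes are detailed were the highest and lowest of each role between intermediate and full, any whose call opposed most called genes of its role at a step, and the 3 highest and 3 lowest of the wider list that reached 1 CPM in a group; others were named after their values were seen. One gene of the wider list is not reported here.

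Counts were analysed in R 4.3.3 with edgeR 4.0.16 (limma 3.58.1): filterByExpr by group, TMM factors, 1 quasi-likelihood fit of all 12 libraries with a term per group, and Benjamini-Hochberg adjustment over 16210 genes. SE is the log2 fold change divided by the root of F. CPM use TMM-scaled library sizes, and 3 counts equal 0.128 to 0.273 CPM by library. Counting error alone is covered by that limit, and no molecular identifiers are named in the labels. The fit was also run on simulated data, and the outcome is not reported here. Alternatives were DESeq2 1.42.0, other scalings and filters, fits of 6 libraries, a minimum 2-fold change, a replicate block, and leaving out each library. Promoter words were counted with Python 3.11.15, and figures drawn with matplotlib 3.10.9.

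Same-numbered libraries deviated together from their group means, every correlation over genes being above 0.1, in intermediate against early (0.12 to 0.29), full against intermediate (0.14 to 0.32) and BEC against full (0.17 to 0.26). The labels do not say what the number marks. In the other 3 comparisons the lowest correlation was under 0.1.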

Additional observations from a re-analysis of the deposited data

How the results depend on the processing

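All alternatives below were planned. The direction at the step from intermediate to full held for every one of the 45 genes under both other scalings, DESeq2 and the replicate block. Requiring a minimum 2-fold change left 9 genes higher in full than in intermediate (7.72% of all genes), 14 higher and 1 lower in full than in early (20.6% and 14.4%), 13 higher and 1 lower in BEC than in early (21.9% and 15.9%), 10 higher in BEC than in intermediate (11.6%), 0 higher and 3 lower in intermediate than in early (10.1% and 6.96%), and 0 lower in BEC than in full (2.45%). Scaling by totals alone gave 22 higher and 4 lower in intermediate than in early, and 1 lower in full and 1 in BEC than in early, where 14.8% and 16.2% of all genes were lower. It turned the log2 fold change from early to intermediate to 0.28 for Rpa1, 0.13 for Tyms, 0.18 for Dut, 0.34 for Mcm5 and 0.065 for Uhrf1, and that from early to full to 0.34 for Rrm2, 0.75 for E2f1 and 0.51 for Tk1. Without a filter beyond 1 count, 8 were higher in intermediate than in early (15.8% of all genes), 1 higher in BEC than in full (5.56%), and 5 lower in BEC than in early (18.2%). With the 6 compared libraries alone, 1 was higher and 2 lower in BEC than in full (12.9% and 12.2% of all genes), and 1 lower in BEC than in early (32.6%). Median-of-ratios factors in edgeR left 0 lower in BEC than in full (10.4% of all genes). The replicate block gave 5 higher in intermediate than in early (30.1% of all genes). In BEC against early, where the lowest correlation of same-numbered libraries was under 0.1, it gave 4 lower (33.8%). The block moved no other count of calls by over 1.5 times.

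Leaving out 1 library at a time changed the counts, given here with the shares of all genes in brackets. In intermediate, 3 to 15 were higher (25.6% to 28.6%) and 7 to 15 lower (22.6% to 25.6%) than in early. In full, 26 to 34 were higher than in intermediate (16.5% to 21.6%). BEC had 0 to 1 higher (7.69% to 11.5%) and 0 to 2 lower (8.14% to 11.5%) than full. Against early, full had 26 to 32 higher (36.2% to 38.9%) and 1 to 4 lower (29.4% to 32%). BEC had 27 to 35 higher (37.6% to 39.7%) and 1 to 5 lower (30.8% to 32.2%) than early. Against intermediate, 26 to 33 were higher in BEC (22.9% to 26.9%). The log2 fold change from early to intermediate ran from -0.67 to 0.61 for Mcm5, from -1.48 to 0.31 for Cdc6 and from -1.03 to 0.77 for Uhrf1. That from early to full ran from -0.88 to 0.45 for Rrm2, from -0.29 to 0.21 for E2f1 and from -0.60 to 0.10 for Tk1, and that of Gins4 from intermediate to full from -0.020 to 0.055. The cause of these shifts was not tested. Depth limits Orc1, Cdc6 and Fen1, which had 20 counts or fewer in at least 5 libraries each.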
